A study of Mus musculus with 2 samples.

Results

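The nuclear genes of respiratory complexes II to V were described in pools of layer 5 pyramidal neurons, the large excitatory output cells of a deep layer of the mouse cortex. The members were the protein-coding genes Sdha to Sdhd, Cyc1, Cycs and Usmg5 and every protein-coding gene whose symbol starts with Uqcr, Atp5 or Cox followed by a digit from 4 to 8. The rule found 50 genes among 43346 gene rows, of which 21474 were protein-coding. Of these, 4 belong to complex II, 9 to complex III and 18 each to complexes IV and V, and 1, Cycs, is the mobile carrier cytochrome c. The 18 counted for complex V include Atp5s, which the rule takes in by its symbol and which is not a subunit. There were 2 libraries, replicates 1 and 2, each from 50 laser-captured neurons, labelled as from a wild-type male mouse aged 8 months, sequenced from RNA longer than 200 nt. Both libraries belong to 1 group, with no second genotype, treatment or age, and the labels give the strain as B6NCrl, C57Bl6 or C57Bl5 in different places. Although labelled biological replicates, both name the same donor, so an SD here may span animals or may be technical, and no p-value was computed.

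The respiratory chain of the inner mitochondrial membrane passes electrons from succinate and NADH through ubiquinone, complex III, cytochrome c and complex IV to oxygen. Complexes III and IV pump protons while doing so, and complex V, the ATP synthase, lets them flow back to make ATP. Complex II is encoded by nuclear genes alone, whereas complexes III, IV and V combine nuclear subunits with a few made inside the mitochondrion. Pyramidal neurons spend much of this ATP on ion pumping after synaptic currents and action potentials.

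Levels are in TPM, a read count divided by transcript length and scaled to the same total in every library, so genes can be compared with each other. Replicate 1 held 23137724 estimated gene reads and replicate 2 held 26460514, of which the members took 570653 and 649181, or 2.47% and 2.45%. By TPM they made up 5.63% and 5.59% of all gene expression. Where 2 values are joined by "and", replicate 1 comes first. All 8 markers of excitatory neurons fixed for the check reached 1 TPM in both libraries, beside 11211 of 21474 protein-coding genes. Their medians were 34.3 and 46.9 TPM. Markers of other cells were also present: 6 interneuron markers had medians of 148 and 52.9 TPM and sums of 3345 and 1291 TPM, and 5 oligodendrocyte markers had medians of 63.9 and 74.7 TPM and sums of 454 and 574 TPM. The sums were 638 and 839 TPM for the excitatory markers and 347 and 383 TPM for 5 astrocyte markers. These lists hold different genes and do not measure shares of cells, and the part of other cells in the members' levels was not tested. In such pools fewer cells of a type and less RNA per cell cannot be told apart.

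The c-subunit genes of complex V show how members can differ in RNA and yet share a part of their product. Atp5g1 (chr11:96068852-96075670, minus strand), Atp5g2 (chr15:102662864-102672352, minus strand) and Atp5g3 (chr2:73908447-73911326, minus strand; all GRCm38) each encode a longer precursor whose last 78 residues, translated from the annotated coding sequences, are identical in all 3. The coding bases of the last 50 of these residues are shown because they decide which reads can be told apart, with the 39 positions at which the genes differ in capitals.
Atp5g1: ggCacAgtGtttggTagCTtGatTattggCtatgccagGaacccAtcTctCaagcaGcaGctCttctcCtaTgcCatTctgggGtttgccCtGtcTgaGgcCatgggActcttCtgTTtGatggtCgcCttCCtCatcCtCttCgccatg
Atp5g2: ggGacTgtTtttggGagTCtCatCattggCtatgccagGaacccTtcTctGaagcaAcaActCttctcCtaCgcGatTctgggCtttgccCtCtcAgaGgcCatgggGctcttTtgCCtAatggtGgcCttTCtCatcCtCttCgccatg
Atp5g3: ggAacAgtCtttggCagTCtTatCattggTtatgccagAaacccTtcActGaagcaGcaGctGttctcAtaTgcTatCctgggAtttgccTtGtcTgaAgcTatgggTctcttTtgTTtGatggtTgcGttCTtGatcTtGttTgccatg
Over the 237 coding bases of the identical end, stop codon included, Atp5g1 and Atp5g2 were 84.8% identical, with a longest shared run of 21 bases. Atp5g3 shared 78.5% with Atp5g1 and 77.2% with Atp5g2, with longest runs of 11 and 8 bases.

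As a group the members stood among the most abundant nuclear messages of these pools. Their median level was 940 and 859 TPM (900 ± 57.3, SD, n = 2), beside 2.02 and 1.84 TPM over all protein-coding genes. The nuclear genes of complex I, the NADH dehydrogenase that feeds the same chain, had medians of 670 and 640 TPM over 38 genes. Among the 100 protein-coding genes with the highest mean TPM, 25 were members and 11 were complex I genes. In all, 23 of the 50 members lay at a mean of 1000 TPM or more. At 1 TPM or more, 47 members were detected in each library and 46 in both, beside 11211 of 21474 protein-coding genes and 37 of 38 complex I genes in both.

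**Figure D1:**
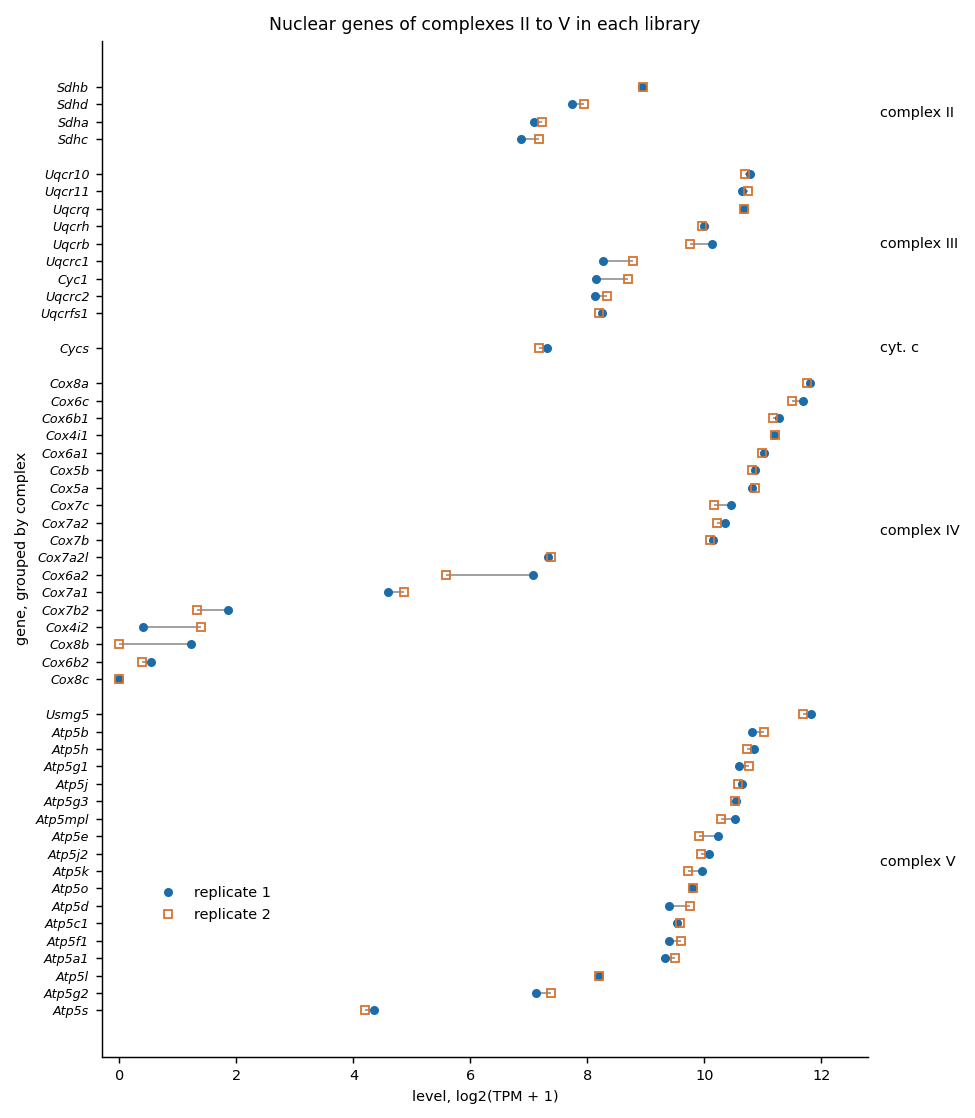
Level of each of the 50 genes as log2(TPM + 1) in replicate 1 (filled circles) and replicate 2 (open squares), grouped by complex and ordered by mean TPM, with a grey line joining the 2 libraries. Complex II and cytochrome c lie below most genes of complexes III to V, and the low genes of complex IV are its tissue-restricted isoforms.

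Complex II oxidises succinate and is the only one of these enzymes that also works in the citric acid cycle. It had the lowest median of the 4 complexes, 173 and 197 TPM (185 ± 16.8, SD, n = 2). Sdhb, the iron-sulfur subunit, had 488 and 494 TPM. Sdhd, a membrane anchor, had 212 and 246 TPM. These were the higher members, and the flavoprotein Sdha, which binds succinate, lay below both of them at 135 and 148 TPM. The other anchor, Sdhc, had 116 and 143 TPM, so the highest and lowest means differed by 3.79-fold. In both libraries the order was Sdhb, Sdhd, Sdha and Sdhc, although Sdha and Sdhc differed by less than the spread of Sdhc between the libraries.

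Complex III transfers electrons from ubiquinol to cytochrome c, and its members fell into 2 levels in TPM. The small supernumerary subunits, which surround the catalytic core, had medians of 1606 and 1636 TPM over 5 genes. The 4 core and catalytic genes had medians of 292 and 369 TPM, and their means lay within 1.25-fold of each other. Every supernumerary gene exceeded every core or catalytic gene in both libraries. The 3 highest were Uqcr10 at 1751 and 1661 TPM, Uqcr11 at 1606 and 1708 TPM, and Uqcrq at 1637 and 1636 TPM. Their order changed between the libraries, so these neighbours were not separated by the data. Uqcrh, the hinge protein that helps cytochrome c dock, had 1017 and 994 TPM. Uqcrb had 1119 and 859 TPM. Among the larger subunits, Uqcrc1 (core) had 308 and 437 TPM and Cyc1, the haem subunit that reduces cytochrome c, had 282 and 416 TPM. The lowest were Uqcrc2, the other core protein, at 279 and 322 TPM and the Rieske iron-sulfur protein Uqcrfs1 at 302 and 293 TPM.

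Complex IV, cytochrome c oxidase, is the end point of the chain, and its nuclear genes ranged over the widest span of levels. The median over all 18 genes was 1224 and 1119 TPM, and without the 7 isoforms known from particular tissues it was 1876 and 1856 TPM. Cox8a had 3580 and 3458 TPM and rank 15 among protein-coding genes by mean TPM, and it was the highest member in replicate 2 but lay below Usmg5 of complex V in replicate 1. Cox6c followed with 3287 and 2887 TPM, and Cox6b1, which faces the intermembrane space, with 2491 and 2312 TPM. Cox4i1, the large subunit through which ATP inhibits the enzyme, had 2326 and 2374 TPM, below Cox6b1 in replicate 1 and above it in replicate 2, and Cox6a1 had 2072 and 2027 TPM. The pair Cox5a and Cox5b had 1807 and 1856 TPM and 1876 and 1808 TPM, and they changed places between the libraries. Cox7c, Cox7a2 and Cox7b lay lower, at mean levels of 1274, 1250 and 1112 TPM. Cox7a2l, which takes part in joining complexes III and IV into supercomplexes, had 161 and 166 TPM. Ndufa4, now counted as a subunit of complex IV but outside the naming rule, had 3091 and 2671 TPM.

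For 6 positions in complex IV, mammals have a widely expressed isoform and a tissue-restricted one, and in each case the widely expressed isoform was far higher in both libraries. The median difference over the 7 pairs, with Cox8a set against both Cox8b and Cox8c, was 10.20 on the log2(TPM + 1) scale. Most restricted isoforms were at or near 0, where the pseudocount sets the value, and over the pairs with both genes at a mean of 1 TPM or more the median was 5.59. Cox6a2, an isoform of heart and skeletal muscle that is also known from fast-spiking interneurons, was the highest of the restricted genes, at 133 and 46.7 TPM. It made up 6.02% and 2.25% of the TPM of Cox6a1 and Cox6a2 together. Cox7a1, another muscle isoform, had 23.0 and 28.3 TPM, or 1.72% and 2.33% of its pair with Cox7a2. The remaining 5 lay below 3 TPM. Cox7b2 had 23 and 15 reads, Cox6b2 had 3 and 2 reads, and Cox8c had none in either library; all 3 are known from testis. A count of 0 allows up to 3 reads, or 0.130 and 0.113 CPM, the count relative to all gene reads. Cox8b had 7 reads in replicate 1 and none in replicate 2. Cox4i2, known from lung and vascular mural cells, had 4 and 23 reads. The 6 striated muscle markers summed to 25.8 and 47.0 TPM. Of these, Acta1 had 20.5 and 35.6 TPM, Tnnt2 4.26 and 7.99, Myh7 0.55 and 1.21, Tnni3 0 and 2.08, Ckm 0.36 and 0.05, and Myh6 0.06 and 0.01. The part of such cells in the levels of the muscle isoforms was not tested. The 5 male germ cell markers summed to 0 and 0.18 TPM.

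Complex V joins a catalytic head, a stalk, a rotating ring and membrane subunits, and its 18 genes had a median of 1037 and 928 TPM. Without Atp5s, the medians over 17 genes were 1081 and 965 TPM. Usmg5, a small membrane subunit, was highest at 3627 and 3305 TPM. Atp5b, the catalytic beta subunit, had 1803 and 2087 TPM, and Atp5h of the peripheral stalk had 1852 and 1707 TPM. The order of these last 2 changed between the libraries. The alpha subunit Atp5a1, which pairs with beta in the head in equal numbers, had 641 and 725 TPM. Thus 2 genes whose products are used in equal numbers differed in TPM by 2.85-fold in their means. On protein-coding transcripts alone, in replicate 1, Atp5b was still higher, with 869 TPM against 418 TPM for Atp5a1. The size of the difference thus depends on transcript assignment. In gene TPM, the other head and shaft genes, Atp5c1 (736 and 768 TPM), Atp5d (670 and 860 TPM) and Atp5e (1205 and 965 TPM), lay between Atp5a1 and Atp5b. The 4 stalk genes had medians of 1247 and 1206 TPM, with Atp5j at 1606 and 1521, Atp5o, which ties the stalk to the head, at 888 and 891, and Atp5f1 at 676 and 775. Membrane subunits Atp5mpl, Atp5j2 and Atp5k had mean levels of 1357, 1031 and 916 TPM. The lowest entries were Atp5g2 at 139 and 165 TPM and Atp5s at 19.5 and 17.3 TPM. Atpif1, the inhibitor that blocks reverse ATP hydrolysis, had 2421 and 2312 TPM, above all members of complex V except Usmg5.

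Among the genes for the c-subunit of the ring, Atp5g1 and Atp5g3 carried nearly all of the TPM. Atp5g1 had 1538 and 1746 TPM and Atp5g3 had 1497 and 1465 TPM, so that each gave between 43.4% and 51.7% of the sum. The share of Atp5g2 was 4.38% and 4.89%. The differing bases shown above are spread along the coding end, with no identical run over 21 bases between any pair. The posterior SD of the count in the authors' deposited tables, a measure of how uncertain read assignment was, reached 4.65% and 4.41% of the count for Atp5g2 and was 0.97% and 0.76% for Atp5g1. Atp5g3 shared no 31-base word with another gene of the tables, and its posterior SD was 0.

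Genes elsewhere in the genome that share sequence with members held much TPM for a few of them. A copy was taken as a gene of the tables with at least 10% of its own 31-base words in the leading coding transcript of a member. Such copies existed for 23 of the 50 members, 52 in all, and for 18 of these 23 they held at most 10% of the summed TPM in both libraries. Of the 52, 18 share at least 60% of their words with the member and 22 share under 25%. For the other 5 members, Cycs, Atp5l, Atp5g2, Cox7c and Atp5g1, copies held from 23.8% to 90.8%, and those with the most TPM share 87.9% to 100% of their words. Atp5l, subunit g of the ATP synthase membrane part (chr9:44912557-44920742, minus strand), was given 292 and 294 TPM. Its processed pseudogene Gm10221 (chr5:24581554-24581862, minus strand, overlapping no other annotated gene) was given 1573 and 1485 TPM, and 100% of the words of Gm10221 occur in Atp5l. With its 8 copies Atp5l came to 1867 and 1781 TPM, whereas its own level was below that of every member of complex V other than Atp5g2 and Atp5s. The posterior SD of its count was 4.22% and 3.89%, and Atp5l and Atp5g2 were the only members for which it was above 1%.

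**Figure D2:**
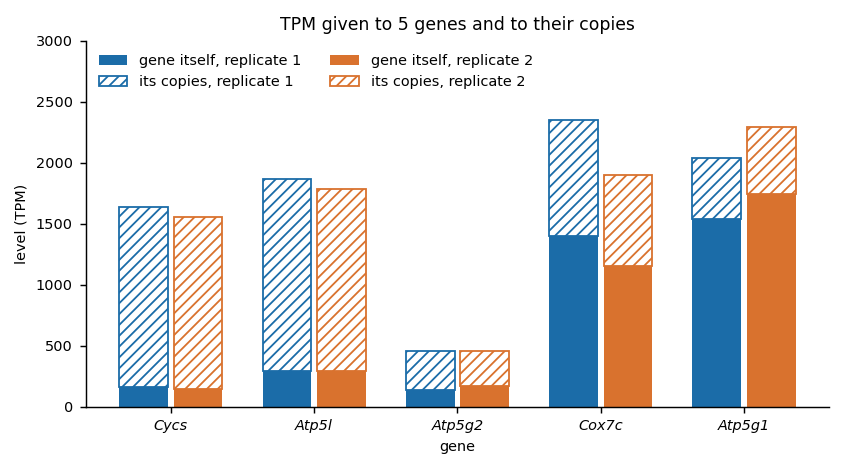
TPM of 5 genes (filled bars) and the summed TPM of their copies (hatched, stacked on top) in replicate 1 (blue) and replicate 2 (orange). In Cycs, Atp5l and Atp5g2 the hatched part exceeds the filled part in both libraries.

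Cytochrome c shows the same pattern. Cycs (chr6:50562563-50566538, minus strand), whose product carries single electrons from complex III to complex IV, was given 158 and 143 TPM. The retrocopy Gm10053 (chr19:24875686-24876631, plus strand), annotated as protein-coding, was given 666 and 670 TPM and shares 96.6% of its words with Cycs. The processed pseudogene Gm10108 (chr5:13121448-13121766, minus strand) was given 809 and 745 TPM and shares 87.9%. With 7 copies the summed TPM of Cycs was 1634 and 1558. In reads, the copies held 14870 and 16402, against 9157 and 9453 for Cycs. The testis cytochrome c gene Cyct was listed at 0 in both libraries. For Atp5g2 the transcribed processed pseudogene Gm10175 (chr7:23946646-23947290, minus strand) had 318 and 266 TPM, all of its words occur in Atp5g2, and the sum was 459 and 453 TPM. Cox7c (chr13:86044816-86046904, minus strand) came to 2346 and 1898 TPM with its copies, chiefly Gm12338 (chr11:75599763-75599954, minus strand, inside Pitpna on the opposite strand) at 937 and 737 TPM. In reads, the copies of Cox7c held 1800 and 1612, against 11809 and 11120 for Cox7c. Atp5g1 came to 2035 and 2292 TPM with its own, chiefly Gm10039 (chr11:100361716-100362126, minus strand) at 495 and 544 TPM. Whether reads given to a copy arose from the copy or from the member was not tested, so for these 5 genes the levels above hold only for the authors' assignment. Because TPM divides by length, a sum over copies is not the level a member would have if given all these reads. With copies summed for every member, the median rose to 1050 and 929 TPM.

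Transcript shares were used for replicate 1. At a gene level of at least 10 TPM, the leading transcript held a median of 98.9% of the TPM of a gene over 45 members, of which 13 have only 1 transcript in the table, so that their share is fixed at 100%. Among the 32 members with 2 or more transcripts the median was 93.2%, and 18 (56.3%) had a leading share of 90% or more. Over 5034 protein-coding genes with 2 or more transcripts the median was 70.9% and 27.3% reached 90%, and over 24 such complex I genes the median was 89.7%. The leading transcript was not annotated as protein-coding in 4 members (8.89%), beside 12.5% of all protein-coding genes tested. In Atp5f1 the transcript Atp5f1-203, annotated as subject to nonsense-mediated decay, held 68.1% and the coding Atp5f1-201 held 30.2%. In Cox5b the processed transcript Cox5b-205, of 362 nt, held 64.8% and the coding Cox5b-204, of 865 nt, held 26.7%. Retained-intron transcripts led in Atp5j, with 62.8%, and in Cox7b, with 59.5%, where the leading coding transcripts held 27.8% and 32.0%. These 4 members thus had most of their estimated TPM on transcripts that are not annotated to make the protein.

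The lowest leading share at 100 TPM or more was that of Atp5b, where the coding Atp5b-201 held 48.2% and the processed transcript Atp5b-206 held 42.8%. Atp5a1 had 64.4% on its coding transcript and 34.5% on Atp5a1-204, annotated for nonsense-mediated decay. Atp5h divided its TPM between the coding transcripts Atp5h-201, with 59.9%, and Atp5h-208, with 37.7%. The alternative transcripts are mostly made of sequence that the coding transcript also holds. All exonic bases of Cox5b-205 and Atp5a1-204 lie within those of the coding transcript, as do 95.6% of those of Atp5b-206, 87.3% of Atp5f1-203, 81.0% of Atp5j-208 and 64.3% of Cox7b-203. Because TPM divides by length, a short transcript weighs more in TPM than in reads. Cox5b-205 was given 6394 reads and Cox5b-204 was given 7676, and Atp5b-206 was given 5850 reads against 31588 for Atp5b-201. Protein-coding transcripts alone gave Cox5b 640 of its 1876 TPM and Atp5b 869 of its 1803 TPM, so that the levels of these genes depend on how reads within shared exons were divided. The effect of this division on the levels was not tested beyond these values.

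**Figure D3:**
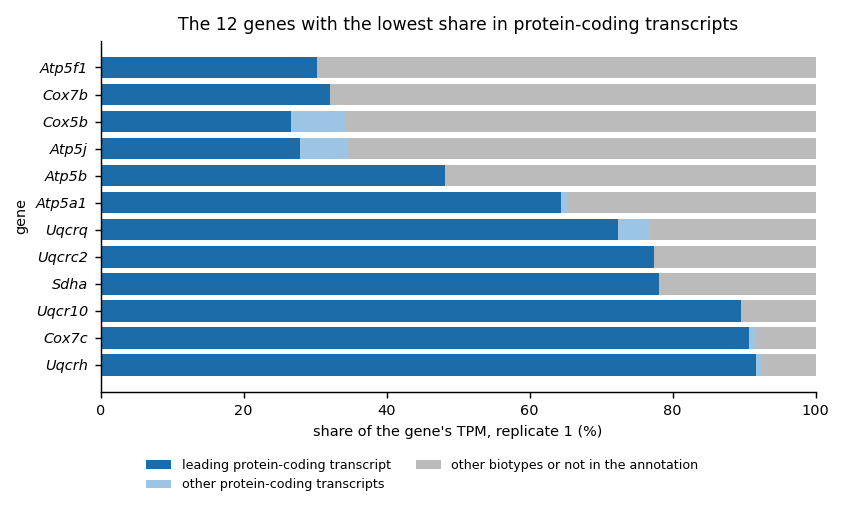
Share of the TPM of a gene in replicate 1 held by its leading protein-coding transcript (dark blue), by other protein-coding transcripts (light blue) and by transcripts of other biotypes or not in the annotation (grey), for the 12 members at 100 TPM or more with the lowest protein-coding share. In Atp5f1, Cox7b, Cox5b, Atp5j and Atp5b the grey part exceeds the blue parts together.

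Between the libraries the members differed little. Ratios were taken as log2((CPM + 1)/(CPM + 1)) of replicate 1 over replicate 2, where CPM is the count relative to the scaled size of the library, over the 44 members at a mean of at least 10 CPM. The median ratio was 0.03, beside -0.03 over all protein-coding genes, with 25 members above 0 and 19 below. Among protein-coding genes at the same minimum, 4159 of 8847 were above 0. Only Cox6a2 lay beyond 2-fold, 1 of 44, beside 4.47% of all genes at that minimum (411 of 9189). Most of those genes were less abundant than the members. From 10 to 100 CPM, 1 of 3 members and 371 of 7127 genes lay beyond 2-fold. From 100 to 1000 CPM the counts were 0 of 36 and 39 of 1976, and from 1000 to 10000 CPM 0 of 5 and 1 of 82. Cox6a2 had 1484 reads in replicate 1 and 585 in replicate 2, which after scaling was 2.84-fold higher in replicate 1 (95% exact interval 2.58 to 3.14, covering counting error only). The interneuron markers were also higher in replicate 1, Pvalb with 508 and 338 TPM, Sst with 2506 and 844 TPM, Vip with 153 and 0.03 TPM and Gad2 with 31.7 and 11.1 TPM. None of the 6 interneuron markers was at 0 in either library. All 5 microglia markers were higher in replicate 1 too, with medians of 16.15 and 5.41 TPM. The part of either cell type in the Cox6a2 difference was not tested. Below the abundance limit, the level of Cox4i2 in replicate 1 was 0.195 times that in replicate 2 after scaling, without a pseudocount (95% exact interval 0.0490 to 0.571, covering counting error only), from its 4 and 23 reads. Of the mural cell markers, Vtn (4.39 and 25.7 TPM), Kcnj8 (0.17 and 2.74 TPM), Pdgfrb (0.03 and 1.06 TPM) and Rgs5 (4.07 and 5.83 TPM) were higher in replicate 2 and Acta2 (11.6 and 0.21 TPM) was lower, and their part in it was not tested.

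**Figure D4:**
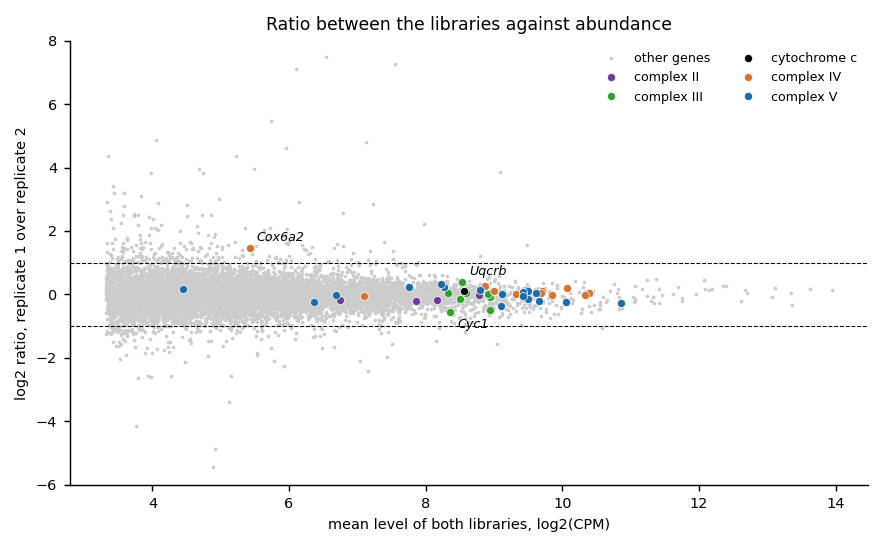
Log2 ratio of replicate 1 over replicate 2 against the mean level in log2(CPM) for genes at a mean of at least 10 CPM, with members coloured by complex, other genes in grey and dashed lines at 2-fold. Cox6a2, at 1.47, is the only member beyond the lines.

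The next largest differences were in complexes III and V and lay under 1.5-fold. Cyc1 had 6179 and 10192 reads, a log2 ratio of -0.55, and Uqcrc1 had 9550 and 15139 reads, a ratio of -0.50. Uqcrb went the other way, at 0.38, with 9759 and 8384 reads. Atp5d had a ratio of -0.36. Thus subunits of complex III were displaced in opposite directions. In complex II 0 of 4 genes had a ratio above 0, and in complexes III, IV and V 5 of 9, 9 of 12 and 10 of 18 did. Beside these, 22 of 37 complex I genes and 4159 of 8847 protein-coding genes had a ratio above 0. Ratios were above 0 in 6 of 7 members with an effective length under 400 nt and in 15 of 20 from 400 to 700 nt. They were above 0 in 1 of 9 from 700 to 1200 nt and in 3 of 8 above that. Counts above 0 for all protein-coding genes in these classes were 57 of 68, 253 of 363, 500 of 1077 and 3349 of 7339. The members' medians in these classes were 0.14, 0.07, -0.19 and -0.17. Over all protein-coding genes the medians in the same length classes were 0.21, 0.11, -0.02 and -0.04. These had the same signs but lay nearer 0 than the members' medians in the classes above 700 nt. Spearman's rho between ratio and length was -0.57 over the 44 members and 0.06 over 8847 protein-coding genes, most of which are longer than 1200 nt. The members share both libraries, so this is a description across genes. Base composition moved less with the members' ratios (rho = -0.28 with GC content, and -0.29 over 8841 protein-coding genes). All 4 complex II genes were below 0, from -0.22 to -0.02, and all 4 have effective lengths above 700 nt.

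**Figure D5:**
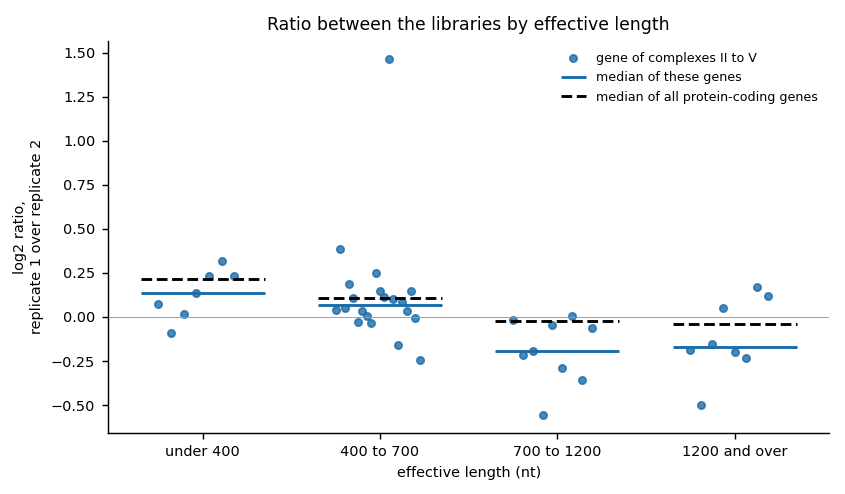
Log2 ratio of replicate 1 over replicate 2 for the 44 members at a mean of at least 10 CPM in 4 classes of effective length in nt (points), with the median of the members (solid lines) and of all protein-coding genes (dashed lines). Members under 700 nt mostly lie above 0 and longer ones below. The medians of all protein-coding genes have the same signs but lie nearer 0 in the classes above 700 nt.

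TPM itself is divided by effective length, so shorter genes tend to higher values. Over the 44 members, Spearman's rho with effective length was -0.63 for mean TPM and -0.10 for mean CPM, beside -0.60 and -0.10 over all protein-coding genes. In complex III all 5 supernumerary genes had effective lengths under 700 nt and all 4 core and catalytic genes had longer ones. In CPM, which is not divided by length, the 2 groups overlapped: Uqcrc1 had 409 and 578 CPM and Cyc1 had 264 and 389, whereas Uqcrb had 418 and 320 and Uqcrh had 392 and 381.

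In TPM, the subunits made inside the mitochondrion were more abundant than their nuclear partners. Cytochrome b of complex III (mt-Cytb) had 7605 and 6995 TPM. The catalytic subunits of complex IV, mt-Co1, mt-Co2 and mt-Co3, had 6748 and 7143, 4868 and 4304, and 4755 and 3480 TPM. In complex V, mt-Atp6 had 11378 and 9589 TPM and mt-Atp8 had 14926 and 11097 TPM. In CPM, which is not divided by length, mt-Atp8 had a mean of 1169, below Atp5b with 1679 and 2049. The lowest of the other mitochondrial subunits in CPM, mt-Co2, had a mean of 2295. The difference of medians from the nuclear members was 2.96 ± 0.09 in complex III, 1.97 ± 0.04 in complex IV (1.29 ± 0.11 without its tissue-restricted isoforms) and 3.56 ± 0.12 in complex V on the log2(TPM + 1) scale (SD, n = 2), and 2.80 ± 0.10 over all 3. These differences far exceeded the spread between the libraries. They compare RNAs of unlike origin, since mitochondrial RNAs come from many genome copies per cell. Mitochondrial reads may also be shared with nuclear pseudogenes, which was not tested.

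Genes that build the complexes were present at much lower levels than the subunits. All 35 assembly factors of a list for complexes II to V were detected at 1 TPM or more in both libraries, with medians of 32.9 and 34.7 TPM. Of all protein-coding genes, 11211 of 21474 reached that limit in both. Uqcc2, a complex III assembly factor, had 830 and 785 TPM, Cox17, a copper chaperone of complex IV, had 599 and 473 TPM, and Cox14 had 432 and 495 TPM. Of the 32 at a mean of at least 10 CPM none lay beyond 2-fold between the libraries, beside 4.47% of all genes at that minimum. The 14 known regulators of respiratory genes all reached 1 TPM in both libraries, beside the same 11211 of 21474, with medians of 6.61 and 6.05 TPM. Tfb2m and Tfam, which act in transcription of mitochondrial DNA, had 27.5 and 26.5 TPM and 25.3 and 27.5 TPM, and the coactivator Ppargc1a had 18.2 and 18.7 TPM. Gabpa, the DNA-binding part of the factor GABP, had 4.93 and 1.88 TPM. At a mean of 11.1 CPM, just over the limit, it was the only regulator beyond 2-fold of the 11 at sufficient CPM, beside the same 4.47%.

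The promoters of members were searched for letters bound by such regulators, on both strands, from 250 bases before to 50 after the start in RefSeq (GRCm38.p6), where 38 of the 50 members matched an entry. The letters of the GABPA and ETS motif, CCGGAAG, occurred in 13 of the 38 (34.2%), beside 12.9% of 17492 protein-coding genes and 12.1% of 33 complex I genes. The NRF1 core GCATGCGC occurred in 8 (21.1%), beside 3.94% of protein-coding genes and 9.09% of complex I genes. It overlaps its own reverse complement by 6 bases, so 1 site can match on both strands. The YY1 letters AAGATGGC occurred in 3 (7.89%), beside 3.57% and 21.2%, and the Sp1 letters GGGCGGG in 13 (34.2%), beside 36.9% and 36.4%. A match describes the letters only, and binding was not measured here. Windows of 30 bases are shown for 3 members with each of the first 2 motifs before the start, in the direction of the gene, with the motif or its reverse complement in capitals.
Cycs: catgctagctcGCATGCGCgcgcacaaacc
Sdhb: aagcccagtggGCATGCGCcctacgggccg
Atp5k: ctttcactgcgGCGCATGCGCctttctggc
Sdhd: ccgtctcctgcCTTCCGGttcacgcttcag
Cox6b1: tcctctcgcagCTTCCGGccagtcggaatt
Atp5h: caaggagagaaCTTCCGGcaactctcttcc
The NRF1 windows lie at chr6:50566611-50566640 (Cycs, minus strand), chr4:140961206-140961235 (Sdhb, plus strand) and chr5:108434431-108434460 (Atp5k, minus strand), with the match beginning 60, 54 and 50 bases before the start. The GABPA and ETS windows lie at chr9:50603877-50603906 (Sdhd), chr7:30626124-30626153 (Cox6b1) and chr11:115419939-115419968 (Atp5h), all on the minus strand, with the match 46, 28 and 38 bases before the start. Members with the GABPA and ETS letters ranged in mean level from 229 TPM (Sdhd) to 3519 TPM (Cox8a). Those with the NRF1 core ranged from 151 TPM (Cycs, by the authors' assignment) to 2049 TPM (Cox6a1). Without the tissue-restricted isoforms and Atp5s, 33 matched members remained, and the counts stayed at 13 and 8. None of the members left out had either motif.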

How the data were processed

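Gene tables for the 2 libraries were used as deposited. They hold expected counts, which are estimated reads per gene and need not be whole, and TPM, both made by the authors against genome build mm10 and GENCODE release M4, as a text deposited beside them states. The deposited transcript table of replicate 1 gives each transcript as a percent of the TPM of its gene, and that of replicate 2 was not analysed here. No source used here names the alignment or quantification software or says whether strand was used; without strand, reads of overlapping genes on opposite strands could not be separated.

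Symbols came from GENCODE M21 on GRCm38, where 42462 of 43346 gene identifiers matched. A second Atp5o entry of the annotation, which the rule also takes, has no row in the tables, so 50 of 51 annotated entries were measured. The symbol rule does not take in Atp5sl, named Dmac2 there. Expected counts were rounded and TMM factors were computed with edgeR 4.0.16 under R 4.3.3. CPM ratios used a pseudocount of 1. The scaling and the ratios were tested on simulated data. Medians, overlaps of 31-base words and motif matches were computed in Python 3.11.15, and intervals are exact binomial at 95%.

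The members and gene lists were chosen with earlier results of these data known. All members may be named; given in full were the 3 highest and 2 lowest of each complex, the isoform pairs, the c-subunit genes, the 5 largest ratios and the 5 lowest leading shares at 100 TPM or more. Alternatives changed the TPM estimate, its sum, filters, summaries, scaling, pseudocounts and libraries, and summing copies or coding transcripts alone were added after the data were seen.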

Additional observations from a re-analysis of the deposited data

How the results depend on the processing

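Of 78 alternative values computed, 53 moved by less than the SD between the libraries (0.1 for the ratio, 1 percentage point for shares) or, for counts, by at most 1.5 times; leaving out a library does so by construction. TPM over genes only, without spike-ins, raised the median of members from 900 to 990 TPM and those of complexes II, IV and V to 204, 1289 and 1080 TPM. Means of log2 values gave 376 TPM for the members and 213, 719, 155 and 787 TPM for complexes II to V. Members at a mean of 1 TPM or more gave 988 TPM overall and 1550 TPM in complex IV, which reached 1866 TPM without its tissue-restricted isoforms. Protein-coding transcripts of replicate 1 alone gave 653 TPM over all members and 164, 502 and 866 TPM in complexes II, IV and V. Summing copies, also added after the data were seen, gave 990 TPM over all members. The median log2 ratio between libraries was 0.38 with spike-in totals, where all protein-coding genes moved to 0.32, and Cox6a2 was then and at a 1.5-fold limit the only member counted. The isoform difference was 10.85 with a pseudocount of 0.1 and 5.59 over pairs with both members at 1 TPM or more. The mitochondrial minus nuclear difference was 2.93 with posterior mean TPM, 4.13 with means and 2.53 without the tissue-restricted isoforms and Atp5s, and in complex IV alone without those isoforms it was 1.29. The median leading share was 93.2% over members with 2 or more transcripts, chosen after the data were seen. No paired analysis was possible because there is 1 group. With 2 libraries the spread itself is poorly known, and members under 10 CPM are limited by counting error.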

Other observations

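Copies of other members held little TPM. Gm14539, whose words all occur in Usmg5, had 37.4 and 54.0 TPM, against 3627 and 3305 TPM for Usmg5 itself. Cox6c2, annotated as a processed pseudogene of Cox6c, had 51.6 and 40.3 TPM, and Gm11273, a protein-coding copy of Cox5b, had 15.6 and 14.1 TPM. Gm10250 shares 80.1% of its words with Atp5h and had 12.2 and 13.9 TPM. The posterior SD of the count of Gm10039 was 155 and 151 reads, the same as that of Atp5g1, and that of Gm10221 was 102 and 106 reads, beside 102 and 105 reads for Atp5l. In Uqcrc2, a transcript of 456 nt that is not in the annotation used held 21.3% of the TPM in replicate 1.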
